A study of Trametes versicolor with 12 samples.

Results

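Gene expression was compared between 2 strains of the white-rot fungus Trametes versicolor, a wood-decaying basidiomycete, in mycelium grown for 2 weeks. The comparison took the 3 cultures of strain 1956-1252 and the 3 cultures of strain BRFM1218 that the labels give as 2 weeks old, which are 6 of the 12 libraries of the series. All 14296 gene models entered it, by the count of all reads assigned to each model. The 6 others came from 4-week cultures of the same strains and were used only to see whether a difference recurred. Both strains grew on agar with 4% malt, the labels name no other addition, and RNA was taken from 3 cultures of each strain. Each group was 1 strain, so a difference is one between these strains, and the tests measure the spread between cultures on that medium. The symbols and locus tags used below come from the annotation of strain FP-101664 SS1, which is neither of the strains sequenced.

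White-rot fungi open wood by oxidising lignin outside the cell. Class II peroxidases (lignin, manganese and versatile peroxidases) are secreted haem enzymes that use hydrogen peroxide, and laccases are secreted copper enzymes that use oxygen. Dye-decolorizing peroxidases form a separate haem peroxidase family with a broad range of substrates, and haem-thiolate peroxidases, also called unspecific peroxygenases, insert oxygen from peroxide into organic substrates. Linoleate diol synthase-type enzymes are fatty acid oxygenases. Cytochrome c peroxidase acts on peroxide inside the mitochondrion, and ferroxidase oxidises iron for uptake at the cell surface.

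Libraries of 1956-1252 held 68308352, 74647672 and 60086647 gene reads, against 31763162, 37237978 and 38609061 in BRFM1218, and between 98.7% and 99.14% of these aligned uniquely. Between 1123 and 1205 models had no read in a library of 1956-1252, against 1608 to 1724 in BRFM1218. Across genes, log2 levels of libraries of the same strain correlated at r of 0.989 to 0.998, and those of different strains at 0.747 to 0.752, so the libraries sorted by their strain labels. Replicates differed by more than counting error, with a chi-square per degree of freedom of 6.2 to 26.8, and the highest values in 1956-1252 were those of its replicate 3 against the others (24 and 26.8).

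Reads were spread over more genes in 1956-1252 than in BRFM1218. The 100 most abundant genes took 21.5%, 21.3% and 21.5% of reads in 1956-1252, against 25.4%, 25.2% and 25.6% in BRFM1218. The groups did not overlap, and the means were 21.4 ± 0.105% and 25.4 ± 0.196% (SD, n = 3 each; two-sided exact permutation test, p = 0.1, the smallest that 3 against 3 can give). The 10 most abundant took 5.73 ± 0.036% in 1956-1252 and 6.37 ± 0.0865% in BRFM1218 (exact permutation p = 0.1, n = 3 each). To reach 50% of all reads took 732, 732 and 723 genes in 1956-1252, against 502, 507 and 501 in BRFM1218. Because of this, dividing by library size alone and dividing by a robust centre of the genes give different zero points, and the scaling has to be stated with every direction.

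**Figure D1:**
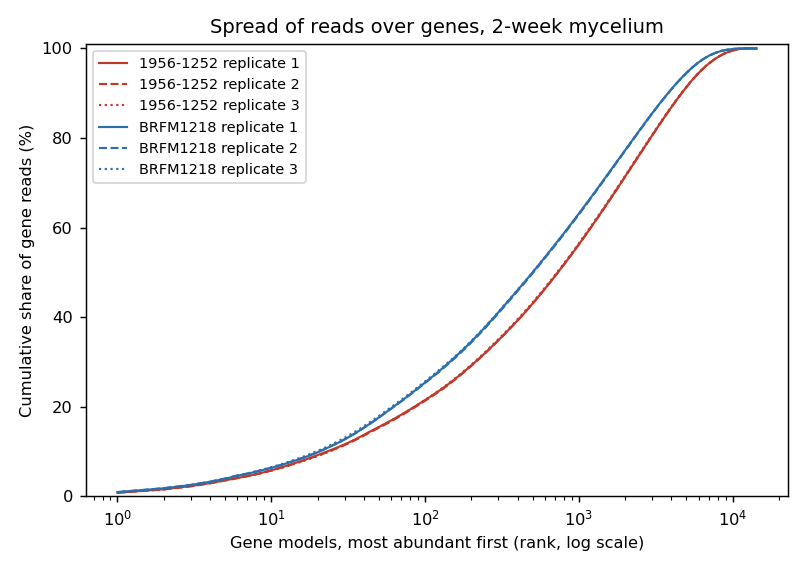
Cumulative share of gene reads (vertical axis, percent) against genes ordered by abundance within each library (horizontal axis, rank, log scale), 1 line per library. The 3 lines of 1956-1252 run below the 3 of BRFM1218 over most of the range, at 21.4% against 25.4% for the first 100 genes.

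Levels here are CPM, read counts scaled to a common library size, with TMM scaling (trimmed mean of M values), which centres the bulk of genes, and differences are log2 values of 1956-1252 minus BRFM1218. TMM factors were 1.19 in each library of 1956-1252 and 0.837 to 0.841 in BRFM1218, so scaling by library size alone would place every gene 1.42 times higher in 1956-1252 than TMM does. A gene is called where its adjusted p was under 0.05 in edgeR's quasi-likelihood test with Benjamini-Hochberg adjustment over 12480 tested genes. In all, 10749 genes were called (86.1%), of which 5636 were higher in 1956-1252 (45.2% of those tested) and 5113 lower (41.0%). At least a 2-fold difference was found for 3646 higher genes (29.2%) and 2897 lower genes (23.2%). At least a 4-fold difference was found for 2111 higher genes (16.9%) and 1226 lower genes (9.82%). The groups did not overlap for 45.8% of tested genes in the higher direction and 41.2% in the lower. Most tested genes thus passed the test, and the description below goes by the size of the differences.

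The split of calls moved with the scaling. Genes higher in 1956-1252 made up 52.4% of the calls with TMM, 52.1% with median-of-ratios factors, 62.0% with upper-quartile factors, 67.7% with library size alone and 50.5% when a trend with expression level was also removed. The median difference over all tested genes was 0.09 with TMM, 0.39 under upper-quartile factors and 0.60 under library size alone. As many as 516 genes called lower with TMM were called higher with library size alone, and 70 called higher with TMM were called lower with the level trend removed. At 4-fold or more, library size alone gave 2810 higher and 819 lower genes, and with the level trend removed the balance turned, with 1480 higher and 1505 lower. Under all 5 scalings, 4613 genes were called higher and 3562 lower, and 1379 and 817 of these differed at least 4-fold under each scaling.

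**Figure D2:**
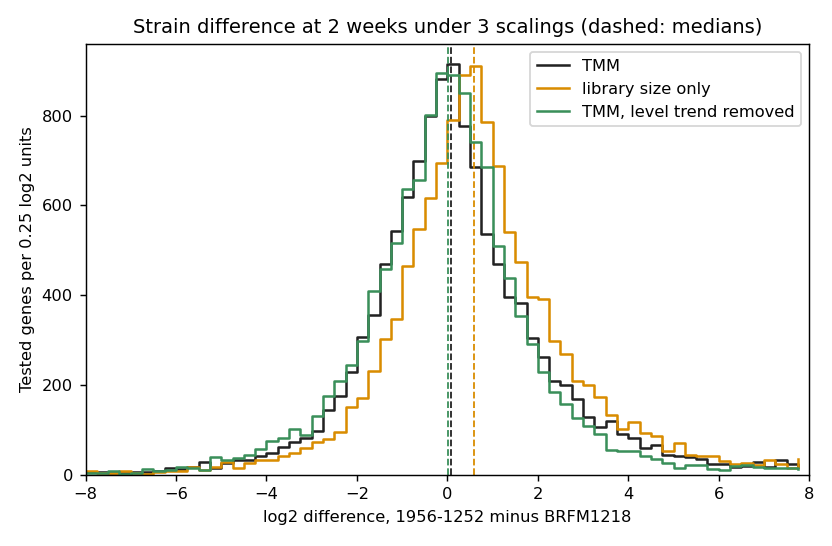
Number of tested genes (vertical axis, per 0.25 log2 units) by log2 difference of 1956-1252 minus BRFM1218 (horizontal axis), for 3 scalings, with medians as dashed lines. The curve for library size alone lies to the right of the TMM curve, with medians of 0.60 and 0.09, and the 297 genes whose TMM difference exceeded 8 either way fall outside the axis.

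The direction of the difference varied with how strongly a gene was expressed. Among 952 genes under 1 CPM on average, 57.8% were called higher in 1956-1252 and 14.6% lower, with a median difference of 1.49. Among the 113 genes of at least 1000 CPM, 21.2% were called higher and 76.1% lower, with a median of −1.02. Genes of 10 to 100 CPM were near balance, with 41.1% higher, 46.9% lower and a median of −0.08, which is 0.42 with library size alone and 0.08 with the trend removed. For the most abundant class the median stayed below 0 under those scalings (−0.51 and −0.35), whereas for the class under 1 CPM it was 2.00 with library size alone and −1.10 with the trend removed. Libraries of 1956-1252 were also the deeper ones, and the part of depth in the excess of low genes was not tested.

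**Figure D3:**
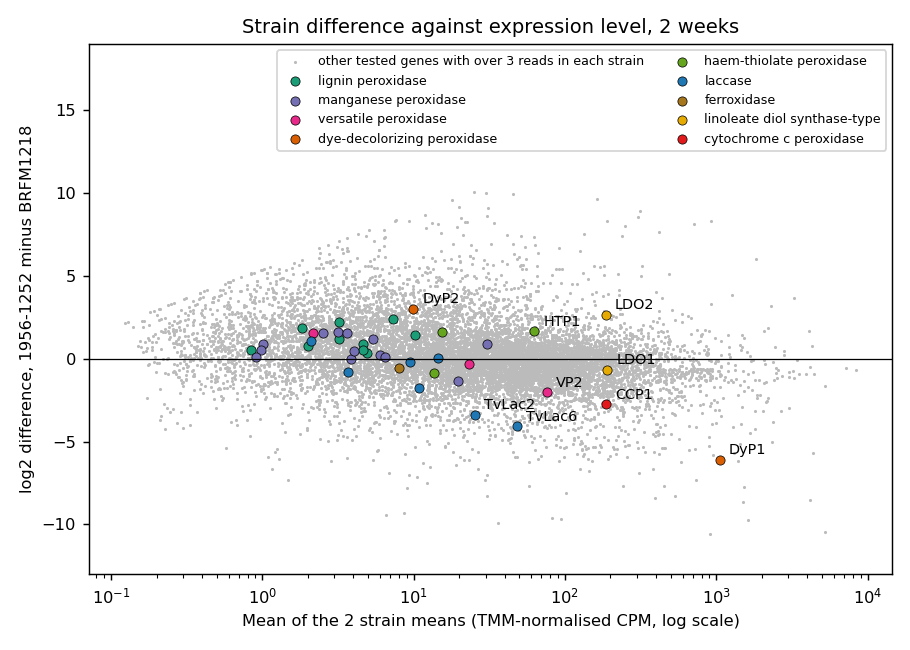
Log2 difference of 1956-1252 minus BRFM1218 (vertical axis) against the mean level of both strains (horizontal axis, TMM-normalised CPM, log scale) for 11980 tested genes with over 3 reads in each strain, with the symbol-bearing enzyme genes coloured by family. The cloud tilts downward to the right, DyP1 lies at −6.09 and DyP2 at 3.03, and the 500 tested genes with at most 3 reads in a strain are not drawn.

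The annotation gave a symbol to 42 genes, all of them oxidative enzymes and all tested. With TMM, 22 were called higher in 1956-1252, 12 lower and 8 were not called, so that 81.0% were called against 86.1% of all tested genes. Their median difference was 0.52, against 0.09 over all tested genes. Under all 5 scalings 15 of the 42 were called higher and 9 lower. Families did not move as blocks: with TMM, lignin peroxidases were mostly higher in 1956-1252, although 4 of 10 changed sign with the level trend removed, laccases were mostly lower, and each family of a few genes held members that went in opposite directions.

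The dye-decolorizing peroxidases differed in opposite directions, with DyP1 showing the largest fall and DyP2 the largest rise among the 42 enzyme genes with TMM. DyP1 had 29.3, 31.2 and 31.2 CPM in 1956-1252, against 2076, 2083 and 2093 CPM in BRFM1218. The strains did not come near each other, and the difference of −6.09 (SE 0.05, adjusted p = 1.65e-17, edgeR) is 68.2-fold lower. Per length, DyP1 ranked 5079th of all gene models in 1956-1252 and 133rd in BRFM1218. DyP2 ran the other way, at 16.7, 17.8 and 18.7 CPM in 1956-1252, against 1.35, 2.68 and 2.38 CPM in BRFM1218, a difference of 3.03 (SE 0.18, adjusted p = 9.79e-10). Both calls were made under all 16 alternative settings, with differences of −6.11 to −5.58 for DyP1 and 2.57 to 3.54 for DyP2. Summed over the pair, the family reached 48.3 ± 2.03 CPM in 1956-1252 and 2086 ± 9.07 CPM in BRFM1218 (SD, n = 3 each).

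Of 7 laccases, TvLac6, TvLac2, TvLac4 and TvLac1 were lower in 1956-1252, TvLac7 was higher, and TvLac3 and TvLac5 were not called, with a family median of −0.77. Called laccases made up 71.4%, against 86.1% of all tested genes, where 45.2% were called higher and 41.0% lower. TvLac6 had 4.56, 6.02 and 5.58 CPM in 1956-1252, against 88.5, 89.0 and 94.6 CPM in BRFM1218, a 16.8-fold difference (log2 −4.07, SE 0.09, adjusted p = 4.98e-14, edgeR). TvLac2 had 4.18, 4.50 and 4.77 CPM in 1956-1252, against 46.7, 45.6 and 46.6 CPM in BRFM1218, which is 10.3-fold (log2 −3.37, SE 0.09). Neither gene's groups overlapped, and these 2 genes made up most of the laccase reads of BRFM1218.

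TvLac4 was lower by a smaller step, at 4.35, 5.11 and 5.35 CPM in 1956-1252, against 18.5, 15.6 and 16.6 CPM in BRFM1218 (log2 −1.77, SE 0.12). TvLac1 differed by −0.77 (SE 0.20, adjusted p = 0.00248, edgeR), a call lost with library size alone (−0.26). TvLac7 differed by 1.08 (SE 0.26, adjusted p = 0.00147), at 2.85 ± 0.646 CPM in 1956-1252 and 1.35 ± 0.356 CPM in BRFM1218 (SD, n = 3 each), and this call was lost with the level trend removed (0.23). The level of TvLac3 was 14.7 ± 0.724 CPM in 1956-1252 and 14.2 ± 1.80 CPM in BRFM1218, a difference of 0.05 (SE 0.11, adjusted p = 0.69) that was called higher under library size alone and under upper-quartile factors. TvLac5 differed by −0.17 (SE 0.13, adjusted p = 0.23), was called lower without BRFM1218 replicate 1 (−0.28, adjusted p = 0.0335), and turned to 0.34 with library size alone. All laccases together gave 42.2, 45.8 and 44.1 CPM in 1956-1252, against 183, 178 and 191 CPM in BRFM1218.

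TvFet3A, the ferroxidase gene of the same multicopper oxidase superfamily, had 5.95, 6.004 and 7.21 CPM in 1956-1252, against 11.3, 8.49 and 8.76 CPM in BRFM1218. The groups did not overlap, and the difference of −0.57 (SE 0.14, adjusted p = 0.00214, edgeR) lost its call under library size alone (−0.07) and under upper-quartile factors (−0.27). It had the lowest share of uniquely aligned reads among the named enzymes, 89.8% in 1956-1252 and 88.1% in BRFM1218.

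Among 10 lignin peroxidases, 9 were called higher in 1956-1252 and none lower with TMM, where 45.2% of all tested genes were higher and 41.0% lower. Most of the 10 lay at 1 to 10 CPM, where 57.5% of all tested genes were called higher and 24.8% lower, with a median of 0.78. The family median was 1.05, although LiP2, LiP9, LiP10 and LiP12 fell below 0 with the level trend removed. LiP5 had 12.1, 13.3 and 11.6 CPM in 1956-1252, against 1.47, 1.72 and 3.62 CPM in BRFM1218, a 5.35-fold difference (log2 2.42, SE 0.24, adjusted p = 3.09e-07, edgeR). LiP4 had 5.33, 5.93 and 4.73 CPM in 1956-1252, against 1.05, 0.83 and 1.52 CPM in BRFM1218 (log2 2.23, SE 0.22). LiP1, the most abundant lignin peroxidase per length in both strains, had 14.9, 15.8 and 13.6 CPM in 1956-1252, against 5.41, 5.40 and 5.79 CPM in BRFM1218 (log2 1.41, SE 0.11). For these 3 genes the libraries of 1956-1252 all lay above those of BRFM1218.

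LiP8 and LiP3 followed at 1.84 (SE 0.29) and 1.21 (SE 0.23), and both were called under all 16 alternatives. The other lignin peroxidases differed less, and most of their calls depended on a setting. LiP6 differed by 0.90 and lost its call with the level trend removed (0.32). LiP12 differed by 0.77 (adjusted p = 0.0119, edgeR), which was not called without 1956-1252 replicate 2 (0.58, adjusted p = 0.0875) and was −0.09 with the trend removed. LiP10 differed by 0.54 (adjusted p = 0.00558) and by −0.03 with the trend removed. The weakest call was that of LiP2, at 0.37 (adjusted p = 0.0486), and 11 of 16 alternatives did not call it. These included removing the level trend, with −0.17, and leaving out any library of 1956-1252 or either of the first 2 replicates of BRFM1218, which gave values of 0.29 to 0.41 with adjusted p between 0.0821 and 0.157. LiP9, at 0.995 ± 0.191 CPM in 1956-1252 and 0.696 ± 0.0889 CPM in BRFM1218, was not called (0.51, adjusted p = 0.116). It was called lower with the level trend removed (−1.20) and higher with library size alone (1.02) and upper-quartile factors (0.82). Together the family gave 60.2, 66.2 and 54.7 CPM in 1956-1252, against 23.6, 23.9 and 28.0 CPM in BRFM1218.

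Manganese peroxidases, which oxidise manganese to a diffusible agent that attacks lignin, were less uniform: 7 of 13 were called higher in 1956-1252, MnP10s was lower and 5 were not called, with a median of 0.53. Called members made up 61.5%, against 86.1% of all tested genes, where 45.2% were called higher and 41.0% lower. Most of the 13 lay at 1 to 10 CPM, where 57.5% of all tested genes were called higher and 24.8% lower, with a median of 0.78. MnP1s led the family in 1956-1252 per length, with 46.4, 41.8 and 32.3 CPM in 1956-1252, against 22.3, 19.4 and 22.1 CPM in BRFM1218 (log2 0.92, SE 0.12, adjusted p = 5.34e-06, edgeR). MnP10s led it per length in BRFM1218 and had 12.8, 12.8 and 8.16 CPM in 1956-1252, against 26.7, 28.6 and 29.5 CPM in BRFM1218 (log2 −1.32, SE 0.14, adjusted p = 1.06e-06). Neither gene's groups overlapped, and for both genes replicate 3 was the lowest of 1956-1252.

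MnP5s, MnP6s, MnP4s and MnP2s differed by 1.60, 1.56, 1.53 and 1.197 and were called under all 16 alternatives. Calls of the weakly expressed members were less stable. MnP13 differed by 0.87 (adjusted p = 0.0203, edgeR), a call lost without either of the first 2 replicates of either strain (0.68 to 0.83, adjusted p 0.0655 to 0.0726) and with the replicate number as a block (0.92, adjusted p = 0.0525), and it was −0.70 with the level trend removed. MnP3s differed by 0.48 (adjusted p = 0.0233), was not called without BRFM1218 replicate 3, 1956-1252 replicate 1 or 1956-1252 replicate 2 (0.41 to 0.42, adjusted p 0.0662 to 0.11), and was −0.13 with the trend removed. The 5 that were not called, MnP7s, MnP8s, MnP9s, MnP11s and MnP12s, had differences between −0.03 and 0.53, and MnP9s was called higher without BRFM1218 replicate 2 (0.69, adjusted p = 0.0457). With the level trend removed, MnP8s, MnP9s and MnP12s were called lower (−0.64, −1.03 and −1.55). With library size alone, MnP7s, MnP8s, MnP9s and MnP11s were called higher (0.73, 0.48, 1.03 and 0.64). Summed, the family gave 106, 105 and 82.3 CPM in 1956-1252, against 76.9, 77.6 and 82.3 CPM in BRFM1218, so that replicate 3 of 1956-1252 stood level with the highest library of BRFM1218.

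Versatile peroxidases, which combine the substrate ranges of the lignin and manganese enzymes, went both ways. VP2 had 29.7, 32.3 and 28.3 CPM in 1956-1252, against 119, 122 and 122 CPM in BRFM1218, a 4.03-fold difference (log2 −2.01, SE 0.06, adjusted p = 7.56e-13, edgeR). VP1 was higher, at 3.31, 3.54 and 2.87 CPM in 1956-1252, against 0.564, 1.41 and 1.24 CPM in BRFM1218 (log2 1.58, SE 0.27, adjusted p = 8.4e-05). VP3at had 20.3, 20.2 and 21.4 CPM in 1956-1252, against 29.7, 23.8 and 24.5 CPM in BRFM1218, and its difference of −0.33 (adjusted p = 0.00442) was −0.03 with upper-quartile factors and turned to 0.18 with library size alone. With TMM, 17 of all 26 class II peroxidases were called higher, 3 lower and 6 not, with a median of 0.82. That makes 76.9% called, against 86.1% of all tested genes, of which 45.2% were called higher and 41.0% lower. Most of the 26 lay at 1 to 10 CPM, where 57.5% of all tested genes were called higher and 24.8% lower, with a median of 0.78. With the level trend removed, LiP2, LiP6, LiP10, LiP12, MnP3s and MnP13 lost their calls, and LiP9, MnP8s, MnP9s and MnP12s were called lower. With library size alone, LiP9, MnP7s, MnP8s, MnP9s and MnP11s were called higher and VP3at was not called.

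Haem-thiolate peroxidases were split as well. HTP1 had 94.3, 94.0 and 96.7 CPM in 1956-1252, against 29.3, 30.2 and 31.3 CPM in BRFM1218 (log2 1.65, SE 0.06, adjusted p = 3.29e-12, edgeR), and it was second among the 42 genes per length in 1956-1252. HTP3 was likewise higher, at 22.8, 24.4 and 22.6 CPM in 1956-1252, against 6.66, 6.96 and 9.07 CPM in BRFM1218 (log2 1.62, SE 0.12). HTP2 was lower, at 9.54, 10.4 and 8.84 CPM in 1956-1252, against 14.96, 19.9 and 18.1 CPM in BRFM1218 (log2 −0.88, SE 0.12). None of the 3 genes had overlapping groups, and all 3 were called under all 16 alternatives. Of all tested genes, 86.1% were called with TMM, and groups did not overlap for 45.8% in the higher direction and 41.2% in the lower.

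The linoleate diol synthase-type genes differed in opposite directions. LDO2 had 314, 324 and 327 CPM in 1956-1252, against 52.7, 49.1 and 50.7 CPM in BRFM1218, a 6.34-fold difference (log2 2.66, SE 0.05, adjusted p = 2.61e-15, edgeR). LDO1 had 147, 146 and 149 CPM in 1956-1252, against 229, 236 and 234 CPM in BRFM1218 (log2 −0.66, SE 0.04, adjusted p = 1.33e-09), and it stayed below 0 with library size alone, at −0.15. CCP1, the cytochrome c peroxidase gene, had 49.99, 50.8 and 46.0 CPM in 1956-1252, against 331, 316 and 327 CPM in BRFM1218, a 6.63-fold difference (log2 −2.73, SE 0.05, adjusted p = 4.51e-15). For each of these 3 genes the strains were far apart relative to the spread of the cultures.

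**Figure D4:**
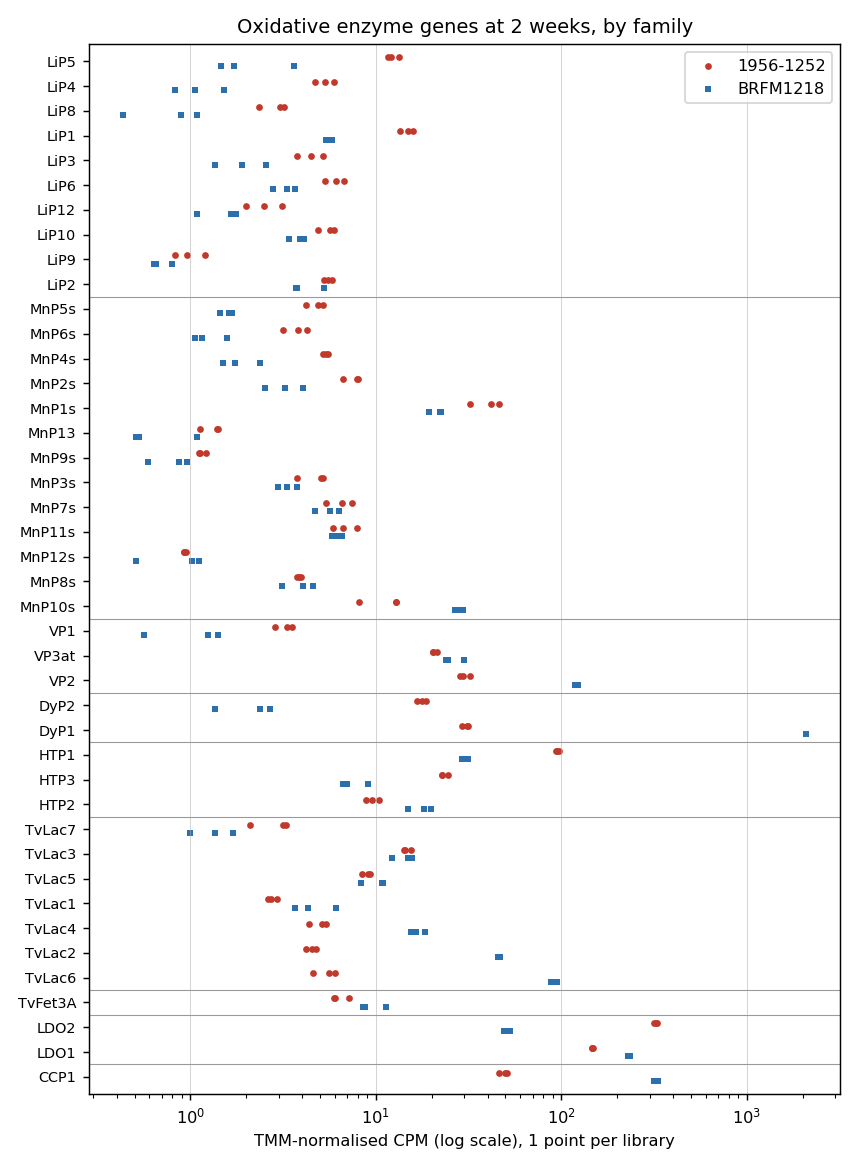
Level of the 42 symbol-bearing oxidative enzyme genes in each of the 6 libraries (horizontal axis, TMM-normalised CPM, log scale), grouped by family with the highest difference of each family at the top. Points of 1956-1252 lie to the right of BRFM1218 for 23 genes and to the left for 12 (groups do not overlap in these directions for 45.8% and 41.2% of all tested genes), with DyP1 the widest gap at 30.6 and 2084 CPM on average.

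The order of the named enzymes therefore differed between the strains. Per length, in the deposited RPKM (reads scaled by model length and by library size only), LDO2 at 114 ± 2.52 and HTP1 at 112 ± 1.81 came first in 1956-1252, and the pair did not differ beyond its spread. LDO1 followed at 50.03 ± 0.42, then MnP1s at 43.6 ± 7.79 and CCP1 at 39.7 ± 2.08, and the spread of MnP1s spans both of its neighbours. In BRFM1218 DyP1 led with 1198 ± 5.07 RPKM, followed by CCP1 at 185 ± 4.12, VP2 at 74.2 ± 1.23, LDO1 at 55.5 ± 0.92 and TvLac6 at 49.4 ± 1.77 (SD, n = 3 each). LDO2, first in 1956-1252, stood at 12.6 ± 0.42 RPKM in BRFM1218.

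The most abundant transcripts overall were also partly different. Of the 100 models with the highest mean RPKM in a strain, 53 were in the top 100 of both, and of those 9 were called higher and 41 lower in 1956-1252. Among all genes of at least 1000 CPM, 21.2% were called higher and 76.1% lower, as given above. Of the 10 models of highest mean RPKM, 7 in 1956-1252 and 8 in BRFM1218 had no locus tag and are not named here. TRAVEDRAFT_161318 was the most abundant model in 1956-1252 at 15746 ± 680 RPKM and stood at 3491 ± 82.2 RPKM in BRFM1218, where it ranked 26th (log2 1.66 with TMM). TRAVEDRAFT_22021 and TRAVEDRAFT_161863 were also higher in 1956-1252, by 0.76 and 1.69. TRAVEDRAFT_163607 was among the 5 most abundant models with a locus tag in both strains, at 6366 ± 489 RPKM in 1956-1252 and 14133 ± 99.3 RPKM in BRFM1218 (log2 −1.66). TRAVEDRAFT_30445 was not called with TMM (−0.10, adjusted p = 0.136, edgeR), and its sign turned to 0.20 with upper-quartile factors, 0.41 with library size alone and 0.65 with the trend removed.

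Some of the most abundant transcripts of BRFM1218 were at far lower levels in 1956-1252. TRAVEDRAFT_141737 had 8.32, 7.65 and 5.63 CPM in 1956-1252, against 10208, 10579 and 10387 CPM in BRFM1218, a log2 difference of −10.49 (SE 0.12, adjusted p = 6.39e-17, edgeR). It ranked 6825th per length in 1956-1252 and 5th in BRFM1218. TRAVEDRAFT_37625 had 25.9, 25.4 and 16.8 CPM in 1956-1252, against 8017, 8440 and 8668 CPM in BRFM1218 (log2 −8.52, SE 0.15). For both genes replicate 3 was the lowest of 1956-1252, and the groups were far apart. TRAVEDRAFT_30442 and TRAVEDRAFT_41381 were lower by smaller steps, at −4.50 and −3.12, with RPKM of 353 ± 16.7 and 1147 ± 42.3 in 1956-1252, against 5621 ± 75.6 and 7023 ± 111 in BRFM1218. The reference table names no function for these models.

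The other models with the largest falls had almost no reads in 1956-1252. TRAVEDRAFT_52808 had 1 read over the 3 libraries of 1956-1252, against 184, 186 and 182 CPM in BRFM1218, a ratio of 44569 in favour of BRFM1218 with a 95% counting interval of 7999 to 1760380. TRAVEDRAFT_52413 had 3 reads in 1956-1252, against 59.9, 65.0 and 60.6 CPM in BRFM1218 (ratio 4992, interval 1708 to 24207), and TRAVEDRAFT_170716 had 1 read in 1956-1252, against 20.2, 21.4 and 19.4 CPM in BRFM1218 (ratio 4927, interval 884 to 194590). These intervals cover counting error only. TRAVEDRAFT_31823 kept a low level, at 1.34, 1.45 and 0.767 CPM in 1956-1252, against 1780, 1826 and 1848 CPM in BRFM1218 (log2 −10.56, SE 0.12).

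Genes with no read at all in a strain were found mostly on the side of BRFM1218. Taking 0 reads over the 3 libraries of one strain and a mean of at least 1 CPM in the other, 14 models were unread in 1956-1252 and 126 were unread in BRFM1218. A level of 1 CPM corresponds to at least 71 reads in a library of 1956-1252 and 26 reads in one of BRFM1218. The counts were 36 and 288 when up to 3 reads were allowed, and 1 and 39 when at least 10 CPM were asked in the other strain. At 4 weeks, 11 of the 14 and 80 of the 126 again had no read in the same strain. A count of 0 shows only that no read was assigned to the model.

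TRAVEDRAFT_53587 was the most abundant of the unread genes, at 822, 844 and 884 CPM in 1956-1252, against 0 reads in BRFM1218, which is at least 25559-fold higher when BRFM1218 is set to 3 reads over its libraries. TRAVEDRAFT_23834 had 386, 370 and 410 CPM and TRAVEDRAFT_17336 had 284, 281 and 313 CPM in 1956-1252, again without a read in BRFM1218 (at least 11683-fold and 8799-fold). TRAVEDRAFT_52770 and TRAVEDRAFT_32144, at 288 ± 9.68 and 278 ± 1.06 CPM in 1956-1252, completed the 5 largest rises, and both were unread in BRFM1218. In the opposite direction TRAVEDRAFT_42523 had no read in 1956-1252, against 20.1, 19.4 and 17.5 CPM in BRFM1218, at least 1534-fold lower. TRAVEDRAFT_60834 and TRAVEDRAFT_78906 were also unread in 1956-1252, against 9.27 ± 0.722 and 8.73 ± 0.582 CPM in BRFM1218 (SD, n = 3 each).

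Genes that were much higher in 1956-1252 often stood side by side. In the order of the reference table, the model after one called at least 4-fold higher was itself at least 4-fold higher in 34.5% of 1855 cases, against 16.9% of all tested models in neighbouring pairs. For genes at least 4-fold lower, the next model was also lower in 15.7% of 1132 cases, against 9.81%. There were 57 runs of at least 4 neighbouring models called at least 4-fold higher, with 290 genes (13.8% of the matched models past that limit), and 8 such runs lower, with 37 genes (3.03%). The number of runs depended on the limit and the scaling, at 137 higher and 53 lower with a 2-fold limit, 81 higher and 4 lower with library size alone, and 30 higher and 13 lower with the level trend removed, a setting added after the data were seen. Of the 290 genes in higher runs, 45 were unread in BRFM1218, and 286 were called higher in 1956-1252 at 4 weeks too, as 33 of the 37 in lower runs were called lower. Of all genes at least 4-fold higher or lower at 2 weeks, in runs or not, 96.0% and 94.0% were called the same way at 4 weeks.

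The longest runs higher in 1956-1252 held 12 models each. The run of TRAVEDRAFT_53584 to TRAVEDRAFT_32021 drew 356082 reads in 1956-1252, against 5 reads in BRFM1218, where 8 of its 12 models had none. Its most abundant member was TRAVEDRAFT_53587, and its mean levels in 1956-1252 spanned 0.576 to 850 CPM. The run of TRAVEDRAFT_137340 to TRAVEDRAFT_25065 drew 83014 reads in 1956-1252, against 149 in BRFM1218, with TRAVEDRAFT_54530 the most abundant at 108 ± 9.71 CPM in 1956-1252 and 0.988 ± 0.0534 CPM in BRFM1218. A run of 10 models, TRAVEDRAFT_136475 to TRAVEDRAFT_24689, was read in both strains, with differences of 2.11 to 4.70 and TRAVEDRAFT_24687 at 113 ± 6.31 CPM in 1956-1252 and 13.5 ± 1.55 CPM in BRFM1218 (SD, n = 3 each).

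Lower runs were shorter. The longest, TRAVEDRAFT_98608 to TRAVEDRAFT_74520, held 7 models with 1206 reads in 1956-1252, against 5843 in BRFM1218. These are raw counts, and the libraries of 1956-1252 were the deeper ones. With TMM the 7 models differed by −8.67 to −3.58. A run of 5 from TRAVEDRAFT_169965 to TRAVEDRAFT_38270 was led by TRAVEDRAFT_29832, at 18.0 ± 0.573 CPM in 1956-1252 and 578 ± 2.75 CPM in BRFM1218 (log2 −5.00). Another run of 5, TRAVEDRAFT_24765 to TRAVEDRAFT_67537, was led by TRAVEDRAFT_61417, at 0.212 ± 0.0264 CPM in 1956-1252 and 164 ± 8.51 CPM in BRFM1218 (log2 −9.59). Its first gene, TRAVEDRAFT_24765, differed by −4.18 at 2 weeks and by −0.22 at 4 weeks.

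The named enzymes were not in such runs, and neighbours of the same family often differed in direction or size. DyP1 and DyP2 are separated by 3 models, all of them lower in 1956-1252 with differences of −0.82 to −0.43, whereas the enzymes beside them differed by −6.09 and 3.03. TvLac6 and TvLac7 have 1 model between them, TRAVEDRAFT_167576, at −1.05. TvLac4 and TvLac5 are adjacent, and the next model, TRAVEDRAFT_45188, was lower by far more than either, at 0.446 ± 0.0989 CPM in 1956-1252 and 37.5 ± 3.42 CPM in BRFM1218 (log2 −6.40). HTP2 and HTP3 are adjacent and went in opposite directions.

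Peroxidase genes also lie near each other. Between MnP13 and MnP9s stand MnP4s, MnP6s, MnP7s, MnP8s and 9 other models, of which 4 were higher and 1 lower. TRAVEDRAFT_131096 in that stretch was among the well-expressed genes and was not called, at 1716 ± 65.7 CPM in 1956-1252 and 1791 ± 46.0 CPM in BRFM1218 (log2 −0.06), while TRAVEDRAFT_23040 differed by 4.95. Between MnP11s and LiP6, which enclose LiP3, LiP4 and LiP5, 10 of 12 other models were tested, of which 4 were higher and 3 lower, with differences of −1.47 to 3.78. The stretch from LiP1 to MnP2s, with LiP2 and LiP12 inside it, held 2 others, 1 higher and 1 lower. Over all tested genes, 45.2% were called higher and 41.0% lower.

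**Figure D5:**
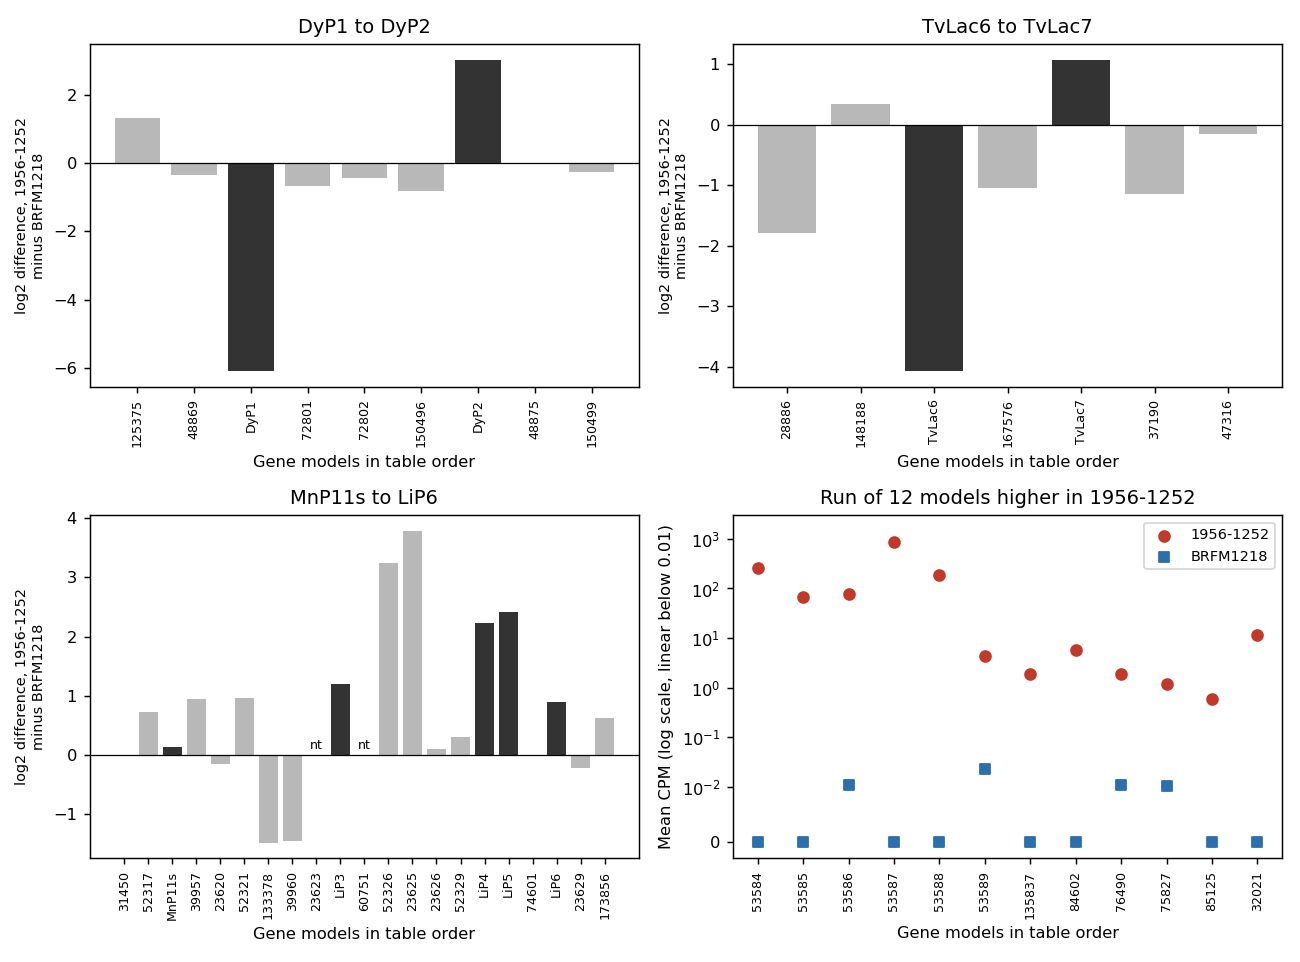
Log2 difference of 1956-1252 minus BRFM1218 (vertical axis) for neighbouring models in table order around 3 groups of named enzymes (dark bars, other models grey, nt not tested), and mean CPM of both strains (log scale, linear below 0.01) along the first of the 2 runs of 12 models higher in 1956-1252. DyP1 and DyP2 point in opposite directions with small falls between them, and all 12 models of the run have levels of 0.576 to 850 CPM in 1956-1252 and at most 0.0229 CPM in BRFM1218.

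Large differences were found on every long contig stretch of the reference table. With TMM, on the 17 contig stretches with at least 100 tested models, the share of models at least 4-fold higher in 1956-1252 ranged over 7.93% to 29.6%, and the share at least 4-fold lower over 6.77% to 16.3%. More models were at least 4-fold higher than lower in 16 of the 17 with TMM, in all 17 with library size alone, and in 10 of the 17 with the level trend removed. The other scalings were added to this count after the data were seen. By model length, of those of at least 2400 bases, 7.02% were at least 4-fold higher and 4.58% at least 4-fold lower, against 25.2% and 10.6% of those of 300 to 600 bases.

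Most large differences recurred in the 4-week cultures, which are separate libraries of the same strains. Of the 2111 genes at least 4-fold higher in 1956-1252 at 2 weeks, 2026 were called higher at 4 weeks (96.0%) and 10 lower, and 1627 were again at least 4-fold higher. Of the 1226 at least 4-fold lower, 1153 were called lower at 4 weeks (94.0%) and 14 higher, and 838 were again at least 4-fold lower. At 4 weeks 84.2% of 12556 tested genes were called in either direction. The 4-week calls were made with TMM only.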

How the data were processed

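RNA sequencing libraries of 12 mycelium cultures were deposited, and the 6 of 2 weeks were analysed here with those of 4 weeks as a second look. Each deposited file lists 14296 gene models with a count of uniquely aligned reads, a count of all gene reads and an RPKM value, per the file headers. Those deposited RPKM values equal the counts of all reads scaled by a fixed model length and by the column total, with a relative deviation of at most 2.6e-07. Aligner, counter, build and use of strand are not given in the sources used here. Protein numbers were matched to the locus tags that RefSeq gives for the v1.0 assembly (strain FP-101664 SS1), which named 14250 models and gave 42 a symbol. The table was used for names and gene order only. A new contig stretch was begun wherever the start position fell from one gene to the next, so a stretch could join neighbouring contigs. The 46 unmatched models took 1.78 to 2.01% of reads in 1956-1252 and 2.46 to 2.92% in BRFM1218.

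Counts of all reads were fitted with edgeR 4.0.16 in R 4.3.3: filterByExpr kept 12480 models and removed 1816, TMM factors were computed over the 6 libraries, and quasi-likelihood tests with 1 mean per strain had 4 residual degrees of freedom, with a common biological coefficient of variation of 7.2%. Standard errors were computed from the difference and the F statistic. A count of 3 reads is worth 0.0337 to 0.0418 CPM in libraries of 1956-1252 and 0.0929 to 0.113 CPM in BRFM1218, and floors and intervals cover counting error only. DESeq2 1.42.0, other scalings, filters, the unique counts, all 12 libraries and leaving out each library were the alternatives, and the trend with level was removed by cyclic loess in limma 3.58.1. The steps were tested on simulated data.

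Members and lists were chosen with earlier results of these data known. Genes named were all with a symbol, then others with a locus tag but no symbol. Of these others, the 5 largest rises and falls of at least 10 CPM on average with groups that did not overlap were named. Also named were the 5 of highest RPKM per strain among models with a locus tag, and the 3 most abundant unread in each strain. The ends and most abundant gene of the 3 longest runs each way completed the list. Genes between neighbouring named enzymes were named after their values were seen. Lists by product word were not tested, since the table used holds no descriptions.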

Additional observations from a re-analysis of the deposited data

Results flagged for a closer look

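For 5 of the 42 symbol-bearing genes the strain difference was called at both ages with opposite signs, and the difference between ages was itself called in a fit of all 12 libraries with edgeR, in which levels are scaled over the 12. With TMM these genes were lower in 1956-1252 at 2 weeks and higher at 4 weeks. The 4-week difference and the difference between ages were fitted with TMM only, so their hold under other scalings was not tested. The 2-week calls of TvFet3A and VP3at were lost with library size alone (−0.07 and 0.18) and with upper-quartile factors (−0.27 and −0.03). For TvLac6 the difference of 2 weeks minus 4 weeks was −4.98 (SE 0.21, adjusted p = 3.3e-12), with 5.43 ± 0.752 CPM in 1956-1252 and 92.0 ± 3.97 CPM in BRFM1218 at 2 weeks, and 9.37 ± 0.533 CPM in 1956-1252 and 4.98 ± 1.43 CPM in BRFM1218 at 4 weeks (SD, n = 3 each). For TvLac4 it was −2.67 (SE 0.21, adjusted p = 1.6e-08), with 4.98 ± 0.516 CPM in 1956-1252 and 17.1 ± 1.49 CPM in BRFM1218 at 2 weeks, and 7.84 ± 1.31 CPM in 1956-1252 and 4.24 ± 0.444 CPM in BRFM1218 at 4 weeks. TvFet3A gave −1.26 (SE 0.25, adjusted p = 0.000456, edgeR), LDO1 gave −1.23 (SE 0.06, adjusted p = 3.56e-11) and VP3at gave −0.98 (SE 0.13, adjusted p = 7.39e-06). A change of the strain difference between the ages was called, in either direction, for 29 of the 42 genes and for 52.9% of all 12648 tested genes.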

How the results depend on the processing

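Counts of genes called higher or lower in 1956-1252 stayed within 1.5 times of those with TMM under every alternative run, and with a library left out they were 5411 to 5664 higher and 4934 to 5079 lower. The share of called genes that were higher, 52.4% with TMM, was 62.0% with upper-quartile factors, 67.7% with library size alone and 50.5% with the level trend removed, and library size alone left 1870 genes at least 2-fold lower. Models unread in 1956-1252 numbered 23 by unique reads, 36 with up to 3 reads allowed and 1 at 10 CPM or more. Those unread in BRFM1218 numbered 288 and 39 under the last 2 rules. Runs numbered 137 higher and 53 lower with a 2-fold limit, 4 lower with library size alone, and 30 higher and 13 lower with the level trend removed, which was added after the data were seen. The replicate numbers did not pair the cultures: deviations of same-numbered libraries correlated at −0.03, 0.02 and 0.01, and with the replicate number as a block 5539 genes were called higher and 5024 lower.

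Signs that turned were those of small differences or weakly expressed genes. With library size alone TvLac5 was 0.34, MnP8s 0.48, VP3at 0.18 and TRAVEDRAFT_30445 0.41. With upper-quartile factors TvLac5 was 0.13, MnP8s 0.27 and TRAVEDRAFT_30445 0.20. With the level trend removed LiP2 was −0.17, LiP9 −1.20, LiP10 −0.03, LiP12 −0.09, MnP3s −0.13, MnP9s −1.03, MnP12s −1.55, MnP13 −0.70 and TRAVEDRAFT_30445 0.65. In that setting TvLac3 was −0.04, MnP7s −0.25 and MnP11s −0.31, and these 3 were not called. The cause was not tested. Libraries of BRFM1218 were the shallower ones, which limits what can be said of genes near 0.1 CPM there.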
